A study of Mus musculus with 22 samples.

Results

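The proteasome subunit genes were followed through liver and 3 populations of sorted male germ cells of the mouse. They were every gene on the array whose symbol begins with Psma, Psmb, Psmc, Psmd, Psme, Psmf or Psmg followed by a number, apart from 4 symbols that the rule leaves out. The rule found 41 genes, each measured by 1 probe set, among 15780 probe sets that carried 1 gene symbol and 16539 probe sets in all. By role they were 5 genes of the outer alpha ring, 4 constitutive and 3 inducible or thymic genes of the catalytic beta ring, 6 ATPases and 11 non-ATPase subunits of the regulatory cap, 6 assembly chaperones, 4 activators, 1 inhibitor, and Psme3ip1, whose product binds an activator.

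The study set trisomic males against euploid siblings, to ask how an extra chromosome segment is expressed in spermatogenic cells. All mice were males of 2 months. The trisomic males, labelled Ts43H, have the centromeric end of chromosome 17 in an additional copy, and the euploid siblings are labelled t121/D17. Liver, pre-mid-pachytene spermatocytes and spermatids had 3 arrays per genotype and mid-late-pachytene spermatocytes 2, making 22, with the germ cells sorted by flow cytometry from suspensions of testicular tubules and 20 to 30 ng of total RNA labelled per array. Nothing in the labels ties the arrays of a group to separate animals, so p-values measure the spread between these arrays, which may be technical. In bulk RNA, fewer cells of a type and less RNA per cell cannot be told apart.

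The proteasome is the barrel-shaped protease that degrades proteins tagged with ubiquitin. Its 20S core is a stack of rings of alpha and beta subunits, with the cutting sites on 3 kinds of beta subunit, and its gate is opened by the 19S cap, whose ATPases unfold the substrate, or by activators of the PA28 family or PA200. Some tissues exchange subunits: interferon and immune cells bring in immunoproteasome subunits such as Psmb9 and Psmb10 with PA28 alpha and beta, while male germ cells replace the alpha subunit of Psma7 by its close relative Psma8 and use PA200, encoded by Psme4, during the removal of histones.

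Values are log2 intensities, so a difference of 1 is a doubling, and values below 3 are called the background range. Levels of different genes come from different probes and were not set against each other. Differences between groups were tested with limma over all genes whose mean reached 4 over the arrays compared, two-sided, with Benjamini-Hochberg adjustment over all of them, and a gene is said to have passed below an adjusted p of 0.05. Of the 41 genes, 40 entered the comparisons with liver, 36 or 37 those between germ cell types. Psmb11, the beta subunit of the thymus, was in the background range on every array, with group means from 2.09 to 2.19, and was never tested. In the comparisons with liver, Psmb9, Psmb10 and Psme2 reached that mean through their liver level alone, as did Psme1 in the later stages, so that a difference was built into their entry. For Psma8 the same held of its germ cell level in the trisomic mice. Psme1 likewise entered the comparisons of later germ cell stages with pre-mid-pachytene cells through its pre-mid-pachytene level alone.

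The markers of each cell type were checked first. A list of 6 hepatocyte markers had a median of 16.36 in euploid liver and no germ cell group above 2.67. The 7 pachytene markers stood at 9.06 in euploid pre-mid-pachytene cells, 14.05 in mid-late-pachytene cells and 13.24 in spermatids. The 6 early prophase markers stood at 11.68 in euploid pre-mid-pachytene cells, against 6.10 in mid-late-pachytene cells. The 6 markers of elongating spermatids, protamines among them, had array medians of 13.97 to 14.54 in euploid and 13.81 to 14.73 in trisomic pre-mid-pachytene cells, near the 15.14 to 15.39 of euploid spermatids, while the mid-late-pachytene arrays were at 10.71 and 11.88. The 6 round spermatid markers stood at 9.80 in euploid pre-mid-pachytene cells, 10.13 in mid-late-pachytene cells and 13.45 in spermatids. Transcripts of elongating spermatids were thus high in the cells labelled pre-mid-pachytene, and their source was not tested. The 6 Sertoli cell markers were also highest in pre-mid-pachytene cells, at 8.04 in euploid cells against 5.04 and 5.60 in the later stages. The part of these transcripts in any difference from pre-mid-pachytene cells was not tested.

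**Figure D1:**
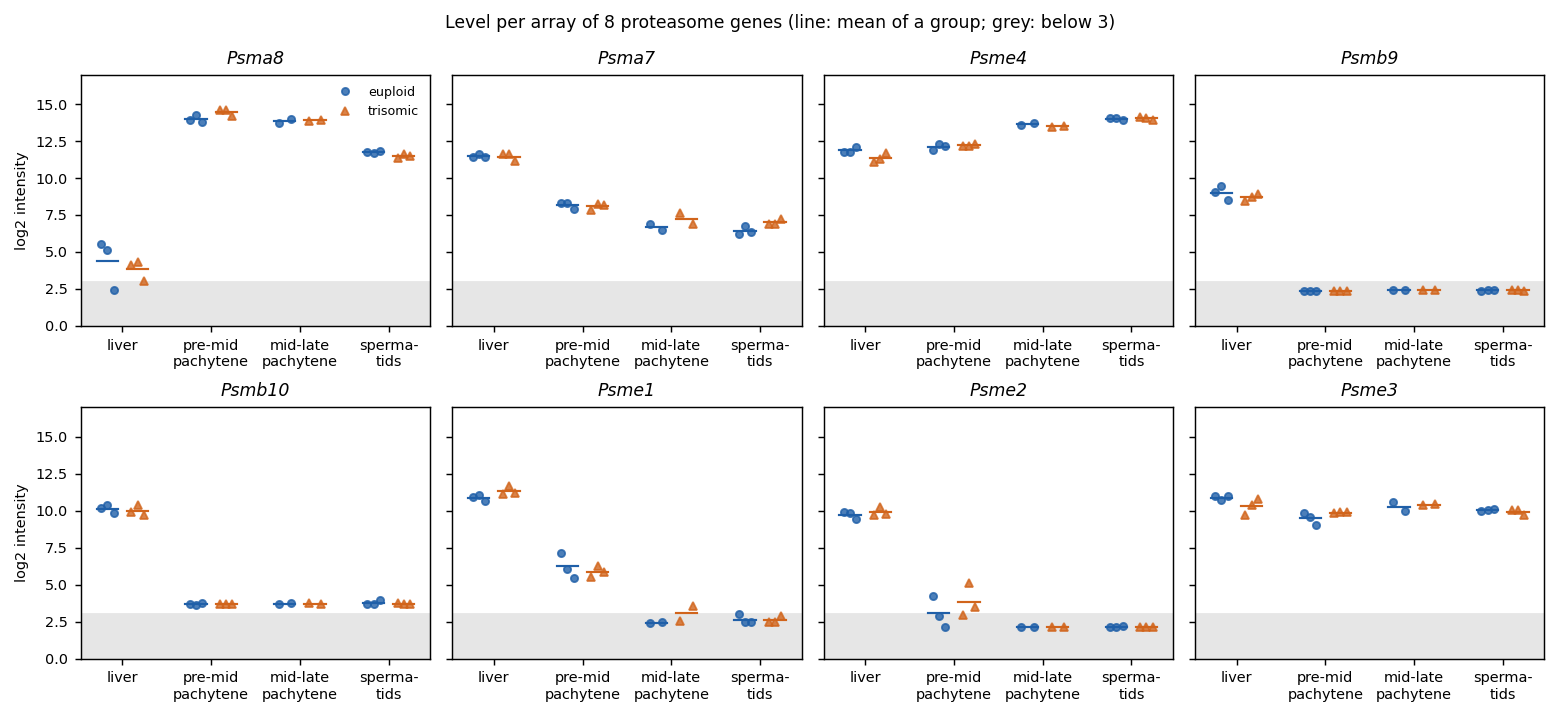
Level of 8 specialised proteasome genes on each array (y axis, log2 intensity) in liver and the 3 germ cell populations (x axis), with circles for euploid arrays, triangles for trisomic arrays, a line at each group mean and grey shading for the background range below 3. Psma8 stands above 11 on every germ cell array, while Psmb9 and Psme2 reach the background range in germ cells and Psma7 falls from above 11 in liver to below 9 in germ cells.

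The 2 alternative alpha subunits changed places between liver and germ cells. Psma8, the alpha subunit of male germ cells, read 5.54, 5.14 and 2.42 on the 3 euploid liver arrays and 4.11, 4.32 and 3.06 on the trisomic ones. It read 13.91, 14.24 and 13.82 in euploid pre-mid-pachytene cells, 13.70 and 14.02 in mid-late-pachytene cells and 11.77, 11.70 and 11.82 in spermatids. Every germ cell array thus lay far above every liver array, and the spermatids lay below both pachytene groups without overlap. In the euploid mice Psma8 was higher than in liver by 9.62 (SE 0.53, adjusted p = 3.17e-12) in pre-mid-pachytene cells, by 9.49 (SE 0.59, adjusted p = 1.89e-11) in mid-late-pachytene cells and by 7.40 (SE 0.53, adjusted p = 1.34e-10) in spermatids. The liver level was itself unsteady, with an SD of 1.70 over the euploid arrays, and reached the background range on the third, so the size of these differences depends on a liver level near the background. Within the germ line the 2 pachytene groups were not separated, at -0.13 (95% CI -1.35 to 1.09, adjusted p = 0.841), and spermatids were lower than mid-late-pachytene cells by a difference of -2.09 (SE 0.58, adjusted p = 0.00411). The spread behind these SEs and intervals was fitted over all groups and so included the unsteady liver arrays, while the germ cell arrays lay close together. The trisomic arrays had the same order, with 14.59, 14.59 and 14.22 in pre-mid-pachytene cells, 13.86 and 13.94 in mid-late-pachytene cells and 11.37, 11.61 and 11.47 in spermatids.

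Psma7, the alpha subunit of other tissues, went the opposite way. It read 11.39, 11.61 and 11.39 in euploid liver, 8.29, 8.28 and 7.90 in pre-mid-pachytene cells, 6.88 and 6.46 in mid-late-pachytene cells and 6.18, 6.74 and 6.38 in spermatids. No germ cell array reached the liver arrays, and the pre-mid-pachytene arrays lay above the later stages, while the last 2 groups overlapped. Against liver the differences were -3.30 (SE 0.21, adjusted p = 3.71e-11), -4.79 (SE 0.24, adjusted p = 6.14e-13) and -5.03 (SE 0.21, adjusted p = 4.56e-14) in the order of the stages. The first step from liver was 9.87-fold on the linear scale and the step from pre-mid-pachytene to mid-late-pachytene cells was a further -1.49 (SE 0.24, adjusted p = 1.52e-05), whereas spermatids and mid-late-pachytene cells differed by -0.23 (95% CI -0.74 to 0.27, adjusted p = 0.411). In the trisomic cells the difference from pre-mid-pachytene to mid-late-pachytene cells was -0.86 (SE 0.24, adjusted p = 0.0031), and without the second trisomic mid-late-pachytene array it was -0.48 with an adjusted p of 0.125.

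The other 3 alpha genes on the array each had a pattern of their own. Psma2 was higher in euploid pre-mid-pachytene cells than in liver, by 0.60 (SE 0.15, adjusted p = 0.0015), and then fell through both later steps. With centred arrays its first difference was 0.20 and did not pass. Its arrays read 13.38, 13.34 and 12.92 in liver, 13.92, 13.99 and 13.53 in pre-mid-pachytene cells, 11.41 and 11.59 in mid-late-pachytene cells and 10.43, 10.69 and 10.26 in spermatids, with no overlap between neighbouring germ cell stages. The differences were -2.31 (SE 0.18, adjusted p = 9.18e-10) at the first germ cell step and -1.04 (SE 0.18, adjusted p = 5.13e-05) at the second. Psma1 had group means of 12.92 in liver, 12.69 in pre-mid-pachytene cells, 11.14 in mid-late-pachytene cells and 10.38 in spermatids, and fell by the same 2 steps in the euploid cells, while in the trisomic cells the second step, -0.45 (95% CI -0.86 to -0.04, adjusted p = 0.055), did not pass. Psma6 was instead highest in spermatids, at 15.10 ± 0.07 (SD, n = 3) against 13.87 ± 0.25 (SD, n = 2) in mid-late-pachytene cells, a difference of 1.23 (SE 0.15, adjusted p = 1.19e-06).

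The catalytic subunits of the immunoproteasome and its PA28 activator were liver genes in these samples. Psmb9 read 9.03, 9.45 and 8.49 in euploid liver and between 2.35 and 2.46 on every germ cell array of both genotypes, that is, within the background range. Psmb10 read 10.16, 10.38 and 9.84 in euploid liver and between 3.66 and 4.0 on every germ cell array. There was no overlap, and the germ cell arrays of each gene lay close together across the stages, which were not tested against each other. The euploid differences from liver were -6.63 (SE 0.17, adjusted p = 4.51e-17) for Psmb9 and -6.43 (SE 0.16, adjusted p = 2.53e-17) for Psmb10 in pre-mid-pachytene cells, and they were of like size in the later stages, at -6.60 and -6.34 in spermatids. Since the germ cell values lay at or near the background, these differences also depend on where the background of each probe set lies.

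The PA28 alpha and beta activator genes, Psme1 and Psme2, differed in the earliest germ cell population. Psme1 read 10.96, 11.06 and 10.67 in euploid liver, 7.13, 6.10 and 5.48 in pre-mid-pachytene cells, 2.39 and 2.49 in mid-late-pachytene cells and 3.0, 2.45 and 2.49 in spermatids. Its pre-mid-pachytene arrays lay between liver and the later stages with no overlap on either side, with -4.66 (SE 0.33, adjusted p = 1.79e-10) against liver and -3.79 (SE 0.37, adjusted p = 2.24e-08) from pre-mid-pachytene to mid-late-pachytene cells. Psme1 entered the comparisons of later stages with pre-mid-pachytene cells through its pre-mid-pachytene level alone. A fall was thus built in, and the p-value of that step adds no support. Psme2 read 9.90, 9.88 and 9.47 in euploid liver and 4.25, 2.87 and 2.15 in pre-mid-pachytene cells, then at most 2.18 on every later euploid or trisomic array. In trisomic pre-mid-pachytene cells it read 2.97, 5.12 and 3.47, so 3 of its 6 pre-mid-pachytene arrays lay above the background range and the genotypes overlapped. Psme1, Psme2, Psmb9 and Psmb10 were, with Psma7, the 5 members that were lower than liver in all 3 germ cell types, in both genotypes and under all 3 scalings of the arrays described below. For Psmb9, Psmb10 and Psme2, and for Psme1 in the later stages, a lower value was built into their entry, so these calls add no support.

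Markers of other liver cells moved with these genes. The macrophage list of 7 genes had array medians of 6.26 to 7.28 in euploid liver and at most 2.16 in euploid germ cells, with summed levels of 34.8 to 39.5 in liver against 15.9 to 21.8, and 3 of its genes were in the background range in liver as well. The 5 endothelial markers had a median of 8.09 in liver and 2.16 to 2.37 in euploid germ cells. Of the 5 lymphocyte markers, 4 were in the background range in liver and only Ptprc, the common leukocyte antigen, was expressed there. The 7 interferon-related genes on the array had a median of 5.44 in euploid liver and 2.32 to 2.45 in the germ cells. In euploid pre-mid-pachytene cells 5 of the 7 were in the background range, and only 3 were tested against liver. B2m, which holds class I molecules together, differed by -7.07 between these groups. Irf1, a transcription factor induced by interferon, differed by -5.69, and Tap2, a subunit of the peptide pump that loads class I molecules, by -6.43. A gene in the background range in germ cells could enter through its liver level alone, so that a difference was built in. The part of macrophages, endothelium and leukocytes in the liver level of the immunoproteasome genes was not tested.

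Promoters of the 4 genes are shown because they moved together. Each is the RefSeq window of assembly GRCm38.p6 from 250 bases before to 50 bases after the transcript start, 5′ to 3′ on the strand of the gene, with motif matches in capitals. The motifs searched on both strands were the core of the interferon-stimulated response element (a pair of GAAA separated by any 2 bases), TGACNNNGC, the core of the antioxidant response element that the factor Nfe2l1 can use, CCAAT, and CAGTTG, a sequence of the Myb type. The capitals mark the interferon motif on the reverse strand in Psme1 and a CCAAT on the reverse strand in Psmb9, and none of the 4 motifs was in the windows of Psme2 and Psmb10.
Psme1, chr14:55578244-55578543, plus strand: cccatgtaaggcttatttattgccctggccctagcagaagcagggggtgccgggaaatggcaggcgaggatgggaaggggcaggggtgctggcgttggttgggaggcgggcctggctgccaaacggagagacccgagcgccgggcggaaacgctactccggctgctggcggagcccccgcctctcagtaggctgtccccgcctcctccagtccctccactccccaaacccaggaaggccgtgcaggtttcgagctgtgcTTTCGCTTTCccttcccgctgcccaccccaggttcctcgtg
Psme2, chr14:55590972-55591271, minus strand: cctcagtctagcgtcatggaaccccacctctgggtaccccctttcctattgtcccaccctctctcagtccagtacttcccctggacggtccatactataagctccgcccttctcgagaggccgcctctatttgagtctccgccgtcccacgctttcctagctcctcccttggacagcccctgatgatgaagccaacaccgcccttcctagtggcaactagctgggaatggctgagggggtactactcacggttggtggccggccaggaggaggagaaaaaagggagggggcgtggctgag
Psmb9, chr17:34187281-34187580, minus strand: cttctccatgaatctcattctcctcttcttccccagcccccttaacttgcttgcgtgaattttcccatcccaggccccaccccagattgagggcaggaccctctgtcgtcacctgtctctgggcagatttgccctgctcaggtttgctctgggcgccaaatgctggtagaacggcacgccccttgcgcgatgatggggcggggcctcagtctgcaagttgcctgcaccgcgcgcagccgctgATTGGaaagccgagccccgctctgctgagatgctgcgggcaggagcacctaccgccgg
Psmb10, chr8:105938343-105938642, minus strand: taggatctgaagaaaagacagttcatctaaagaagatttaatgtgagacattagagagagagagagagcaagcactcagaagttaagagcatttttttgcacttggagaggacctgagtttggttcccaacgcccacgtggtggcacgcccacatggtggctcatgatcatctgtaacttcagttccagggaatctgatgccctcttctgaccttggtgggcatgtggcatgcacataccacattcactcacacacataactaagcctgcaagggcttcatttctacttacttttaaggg

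Over all promoters the motifs were not rare. Of 32851 windows of 300 bases, 3.44% held the interferon motif, 12.4% held TGACNNNGC, 37.4% held CCAAT and 13.7% held CAGTTG. For the members, windows on chromosome 18, where Psma8 and Psmg2 lie, were left out of the search. The windows used covered 34 of the 41 genes. The interferon motif was in 4 of them, Psmd4, Psmd9, Psme1 and Psmg4; TGACNNNGC was in 5, Psmb6, Psmc6, Psmd12, Psmd9 and Psme4; CCAAT was in 13 and CAGTTG in 5. These counts describe the letters and show no binding.

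The constitutive beta subunits changed less than the immunoproteasome genes, though not all of them little. Their euploid group means spanned 0.30 for Psmb6, 0.64 for Psmb4, 1.43 for Psmb2 and 2.30 for Psmb7. Psmb6, which carries the caspase-like site that Psmb9 replaces, read 13.77, 13.65 and 13.64 in euploid liver, 13.47, 13.71 and 13.76 in pre-mid-pachytene cells, 13.95 and 13.58 in mid-late-pachytene cells and 13.79, 14.02 and 14.04 in spermatids. The spermatid arrays lay just above those of liver and of pre-mid-pachytene cells, and all other pairs of groups overlapped. Of the 6 euploid cell type comparisons 1 passed, spermatids against pre-mid-pachytene cells, at 0.30 (SE 0.13, adjusted p = 0.0443). That difference changed sign to -0.55 under quantile normalization, and it was lost without the second or the third spermatid array, or the first pre-mid-pachytene array, at 0.27, 0.26 and 0.22. The largest gap in any of the other 5 comparisons was 0.26 (95% CI -0.00 to 0.53, adjusted p = 0.0588).

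Psmb7, which carries the trypsin-like site that Psmb10 replaces, dipped in the earliest germ cells. It read 13.31, 13.15 and 13.38 in euploid liver, 11.18, 11.54 and 10.94 in pre-mid-pachytene cells, 13.70 and 13.34 in mid-late-pachytene cells and 12.74, 13.07 and 13.15 in spermatids. The pre-mid-pachytene arrays lay below all others, with -2.06 (SE 0.21, adjusted p = 2.68e-08) against liver and 2.30 (SE 0.23, adjusted p = 4.25e-08) from there to mid-late-pachytene cells. Psmb2 was lower than liver in every euploid germ cell type, at -0.91, -1.38 and -1.43, and Psmb4 likewise, at -0.26, -0.53 and -0.64. The first Psmb4 difference turned to 0.67 under quantile normalization and passed there in the opposite direction. In the trisomic pre-mid-pachytene cells neither passed against liver, at -0.35 (95% CI -0.84 to 0.15, adjusted p = 0.174) for Psmb2 and 0.12 (95% CI -0.10 to 0.34, adjusted p = 0.292) for Psmb4.

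Of the remaining activator genes, Psme4 rose along the germ line. Psme3 was highest in liver in the euploid mice, while its highest trisomic mean was in mid-late-pachytene cells. Psme4 encodes PA200, the activator tied to histone removal in elongating spermatids. It read 11.75, 11.78 and 12.12 in euploid liver, 11.88, 12.32 and 12.16 in pre-mid-pachytene cells, 13.56 and 13.73 in mid-late-pachytene cells and 14.08, 14.03 and 13.94 in spermatids. The liver and pre-mid-pachytene arrays overlapped, and both later stages lay above them without overlap, with 1.77 (SE 0.17, adjusted p = 1.64e-08) for mid-late-pachytene cells and 2.13 (SE 0.15, adjusted p = 1.83e-10) for spermatids against liver. The last step, 0.37 (95% CI -0.01 to 0.74, adjusted p = 0.0814), did not pass in the euploid cells. In the trisomic cells it was 0.54 (SE 0.18, adjusted p = 0.0131), and without the first trisomic mid-late-pachytene array 0.51 with an adjusted p of 0.0772. The Psme4 promoter window, shown for the single TGACNNNGC match in capitals, was as follows.
Psme4, chr11:30771525-30771824, plus strand: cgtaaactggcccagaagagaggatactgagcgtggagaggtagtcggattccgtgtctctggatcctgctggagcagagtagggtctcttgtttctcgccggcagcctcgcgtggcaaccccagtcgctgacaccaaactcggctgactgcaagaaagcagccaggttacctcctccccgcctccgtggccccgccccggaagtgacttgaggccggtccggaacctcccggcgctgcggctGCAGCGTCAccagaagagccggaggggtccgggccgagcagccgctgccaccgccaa

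Psme3, which encodes the PA28 gamma activator of the nucleus, read 11.01, 10.71 and 10.99 in euploid liver, 9.87, 9.61 and 9.06 in pre-mid-pachytene cells, 10.57 and 10.0 in mid-late-pachytene cells and 10.0, 10.08 and 10.10 in spermatids. The liver arrays lay above all germ cell arrays, by -1.38 (SE 0.23, adjusted p = 2.11e-05) for pre-mid-pachytene cells. In the trisomic mice none of the differences from liver passed, and the largest was -0.41 (95% CI -0.90 to 0.07, adjusted p = 0.103). The euploid difference of mid-late-pachytene cells from liver, -0.62 (SE 0.26, adjusted p = 0.033), was lost without the first liver array, the third liver array or the second mid-late-pachytene array, at -0.56, -0.57 and -0.33. The euploid rise from pre-mid-pachytene to mid-late-pachytene cells, 0.77, was lost without the first mid-late-pachytene array, at 0.48, or the third pre-mid-pachytene array, at 0.54. Psme3ip1, whose product binds PA28 gamma, was higher than liver in all 3 germ cell types, by 1.44 (SE 0.13, adjusted p = 5.16e-09) in euploid pre-mid-pachytene cells, and its germ cell group means lay between 10.74 and 11.31. Psmf1, the inhibitor PI31, peaked in mid-late-pachytene cells. It read 8.23, 7.99 and 8.33 in euploid liver, 9.76 and 10.04 in mid-late-pachytene cells and 8.68, 8.79 and 8.99 in spermatids, with 1.71 (SE 0.16, adjusted p = 9.41e-09) against liver and -1.08 (SE 0.17, adjusted p = 1.73e-05) in the last step.

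**Figure D2:**
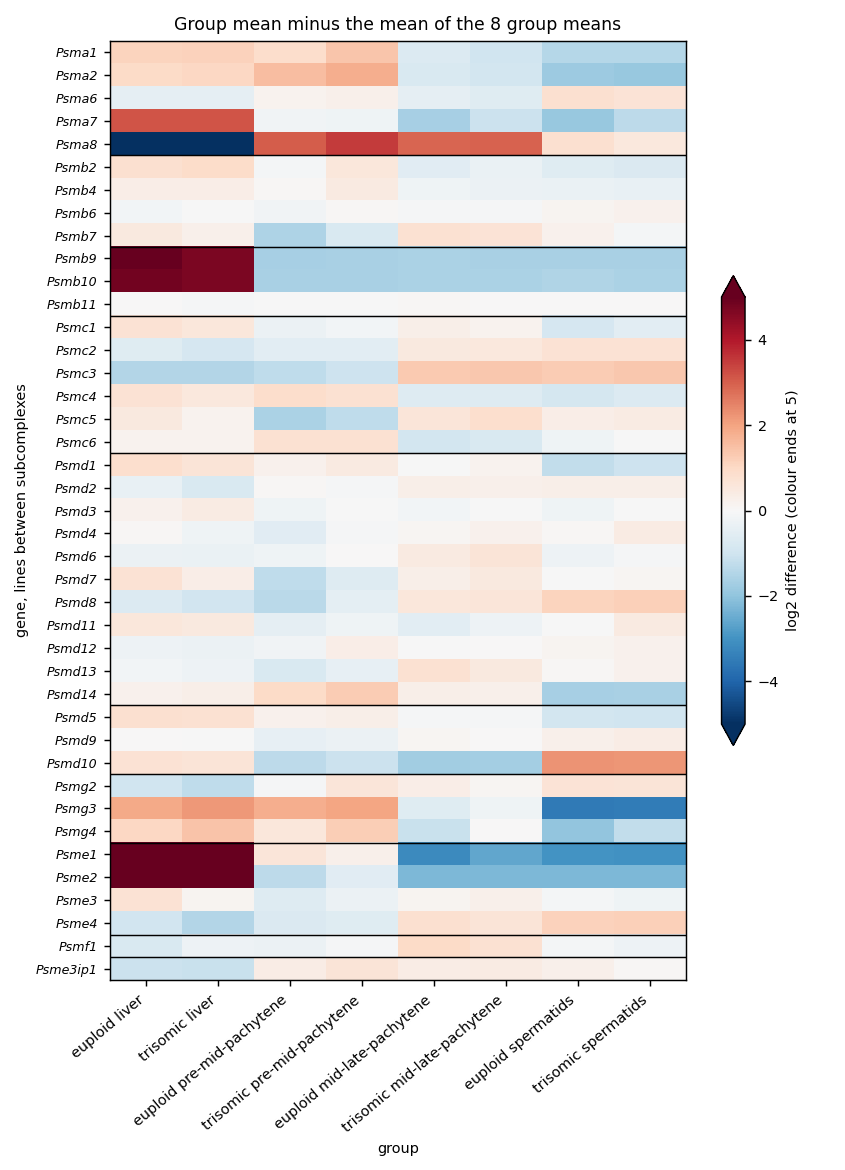
Group means of the 41 proteasome genes (rows, ordered by role) in the 8 groups (columns), each as the difference in log2 intensity from the mean of the gene's 8 group means, with the colour scale ending at a difference of 5 in either direction. Psma8, Psmb9, Psmb10, Psme1 and Psme2 stand out by the contrast of liver with germ cells, and most genes of the cap differ by less.

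In the 19S base the 6 ATPases moved in different directions. Psmc3 rose at the step from pre-mid-pachytene to mid-late-pachytene cells and stayed high. It read 12.15, 12.34 and 12.34 in euploid liver, 12.47, 12.74 and 12.21 in pre-mid-pachytene cells, 14.95 and 15.18 in mid-late-pachytene cells and 15.06, 15.04 and 14.94 in spermatids. The first 2 groups overlapped, as did the last 2, with a gap of more than 2 between the pairs, and the step was 2.60 (SE 0.17, adjusted p = 7.38e-11), or 6.05-fold. Psmc2 rose at the same step by 1.02 (SE 0.15, adjusted p = 6.39e-06) and had its highest group means in spermatids. Psmc5 dipped in pre-mid-pachytene cells, with 10.99, 11.03 and 11.17 against 13.13, 13.17 and 13.04 in liver and 13.42 and 13.07 in mid-late-pachytene cells, so that the 3 groups of euploid arrays gave -2.05 (SE 0.17, adjusted p = 1.90e-09) and then 2.18 (SE 0.20, adjusted p = 7.92e-09). Psmc4 and Psmc6 fell at the step where Psmc3 rose, by -1.50 (SE 0.15, adjusted p = 3.25e-08) and -1.68 (SE 0.14, adjusted p = 1.94e-09), and Psmc6 then rose by 0.70 into spermatids. Psmc1 was lower in spermatids than in mid-late-pachytene cells, at -1.12 (SE 0.17, adjusted p = 1.66e-05).

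**Figure D3:**
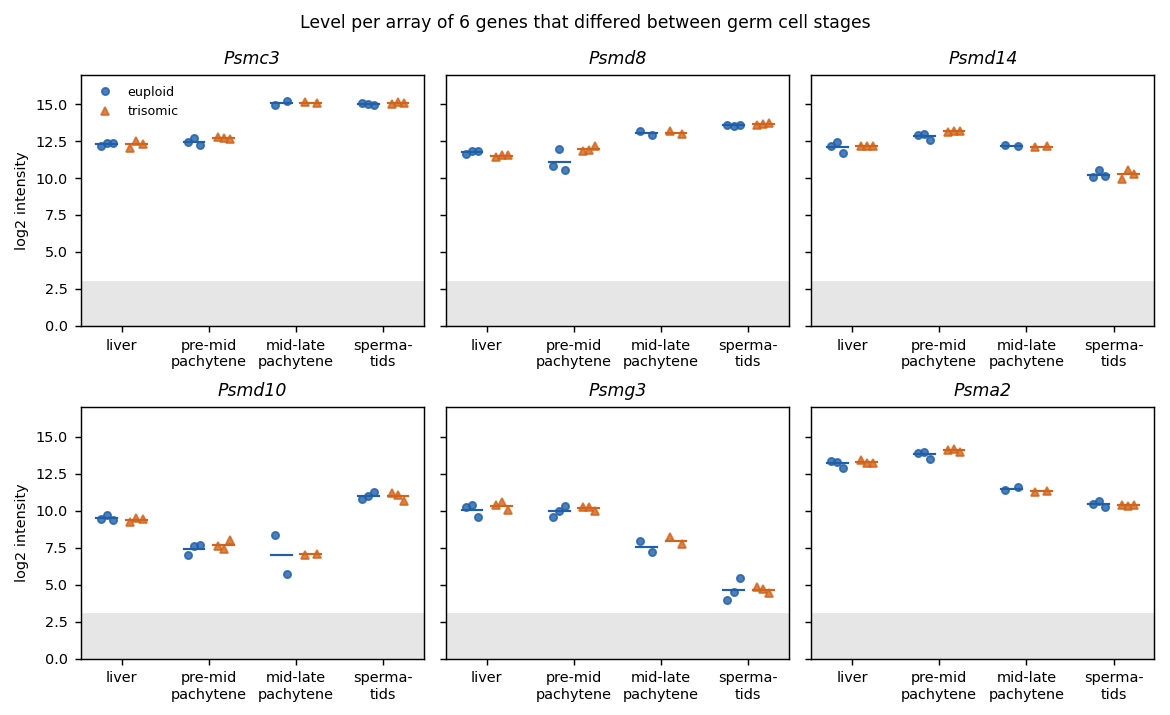
Level of 6 proteasome genes that changed along the germ line on each array (y axis, log2 intensity) by cell type (x axis), with circles for euploid arrays, triangles for trisomic arrays and a line at each group mean. Psmc3 and Psmd8 are higher in the 2 later germ cell groups than in pre-mid-pachytene cells, Psmd14 and Psmg3 are lowest in spermatids, and the euploid mid-late-pachytene arrays of Psmd10 lie far apart.

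Among the 11 non-ATPase subunits of the cap, Psmd8 and Psmd14 changed most along the germ line. Psmd8 read 11.65, 11.80 and 11.83 in euploid liver, 10.81, 11.95 and 10.55 in pre-mid-pachytene cells, 13.17 and 12.89 in mid-late-pachytene cells and 13.62, 13.54 and 13.57 in spermatids. Its second pre-mid-pachytene array stood more than 1 above the other 2 and just above the liver arrays, and all later arrays lay higher still, so that the step to mid-late-pachytene cells was 1.92 (SE 0.27, adjusted p = 2.82e-06). Psmd14, the deubiquitinase that removes the chain before degradation, read 12.15, 12.45 and 11.72 in euploid liver, 12.89, 13.01 and 12.55 in pre-mid-pachytene cells, 12.22 and 12.15 in mid-late-pachytene cells and 10.04, 10.53 and 10.13 in spermatids. Spermatids lay below every other group without overlap, and the last step was -1.95 (SE 0.21, adjusted p = 2.02e-07).

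Psmd7, the partner of Psmd14 in the cap, was lowest in euploid pre-mid-pachytene cells, with 8.81, 9.30 and 9.11 against 11.17, 10.64 and 11.43 in liver, a difference of -2.00 (SE 0.19, adjusted p = 1.38e-08). Psmd1, the large scaffold of the base, fell in spermatids by a step of -1.19 (SE 0.18, adjusted p = 9.84e-06). Psmd13 rose into mid-late-pachytene cells by 1.54 and fell after them by a step of -0.70 in the euploid cells, while the last step in the trisomic cells was -0.30 (95% CI -0.66 to 0.07, adjusted p = 0.144). Psmd6 was highest in mid-late-pachytene cells, 0.74 above liver, and Psmd2, the second scaffold, was above liver in all 3 euploid germ cell types, at 0.43, 0.68 and 0.67, though the first was 0.03 with centred arrays and did not pass. The ubiquitin receptor Psmd4 was below liver in euploid pre-mid-pachytene cells, at -0.64, which was -0.34 and did not pass under quantile normalization, and the corresponding trisomic difference was 0.15 (95% CI -0.21 to 0.50, adjusted p = 0.419). Psmd3 and Psmd11 were below liver, at -0.41 and -0.58 in euploid spermatids, though the Psmd11 difference in trisomic spermatids was -0.05 (95% CI -0.35 to 0.24, adjusted p = 0.715). No euploid comparison of cell types passed for Psmd12, whose group means ran from 12.76 to 13.38; in the trisomic mice it was above liver by 0.62 in pre-mid-pachytene cells and by 0.51 in spermatids.

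Some of the largest changes between germ cell stages were in assembly chaperones. Psmg3, part of the factor that builds the alpha ring, read 10.28, 10.38 and 9.58 in euploid liver, 9.59, 10.02 and 10.34 in pre-mid-pachytene cells, 7.98 and 7.18 in mid-late-pachytene cells and 3.99, 4.50 and 5.46 in spermatids. The first 2 groups overlapped, and each later group lay below the one before it, by steps of -2.40 (SE 0.36, adjusted p = 6.33e-06) and -2.93 (SE 0.36, adjusted p = 9.51e-07). Psmg4, its partner, had group means of 7.04, 6.56, 4.90 and 4.02 in the same order and was -2.55 (SE 0.36, adjusted p = 2.79e-06) from pre-mid-pachytene cells to spermatids. Psmg2, which works in a different pair, was instead above liver in all 3 germ cell types, by 0.94 (SE 0.23, adjusted p = 8.82e-04), 1.33 (SE 0.25, adjusted p = 7.89e-05) and 1.70 (SE 0.23, adjusted p = 1.12e-06) in the euploid mice. Of the chaperones of the 19S base, Psmd5 fell in spermatids relative to liver, at -1.73 (SE 0.26, adjusted p = 5.49e-06), and Psmd9 stood 0.68 (SE 0.15, adjusted p = 2.85e-04) higher in spermatids than in pre-mid-pachytene cells.

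Psmd10, or gankyrin, is the base chaperone on the X chromosome and the only member there. It read 9.43, 9.72 and 9.35 in euploid liver, 7.03, 7.63 and 7.66 in pre-mid-pachytene cells, 8.34 and 5.75 in mid-late-pachytene cells and 10.77, 10.99 and 11.25 in spermatids. Spermatids lay above all other groups, and both mid-late-pachytene and pre-mid-pachytene arrays lay below liver. The 2 euploid mid-late-pachytene arrays differed by more than 2, and the difference from liver, -2.46, was -3.75 without the first and -1.16 without the second. The last step was 3.96 (SE 0.46, adjusted p = 4.32e-07) in the euploid and 3.93 (SE 0.46, adjusted p = 4.83e-07) in the trisomic cells. X-linked genes as a whole moved the same way there: 138 of 165 tested were higher and 1 was lower in euploid spermatids than in mid-late-pachytene cells, with a median of 3.70. At the step before, 215 of 230 X-linked genes were lower and the median was -3.62, whereas Psmd10 differed by -0.40 (95% CI -1.36 to 0.56, adjusted p = 0.428). That value turned on 1 array: it was -1.69 without the first mid-late-pachytene array and 0.90 without the second, and passed in both cases. Its promoter window is shown for its 3 CCAAT matches in capitals.
Psmd10, chrX:140956662-140956961, minus strand: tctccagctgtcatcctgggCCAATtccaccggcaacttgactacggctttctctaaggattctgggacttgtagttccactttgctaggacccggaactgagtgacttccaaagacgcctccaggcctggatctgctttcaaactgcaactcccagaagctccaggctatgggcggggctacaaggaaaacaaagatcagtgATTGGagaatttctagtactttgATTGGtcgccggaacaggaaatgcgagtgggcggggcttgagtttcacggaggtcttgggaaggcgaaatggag

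Counted over the whole set, the tested proteasome genes were lower than liver more often than higher, except in trisomic pre-mid-pachytene cells. In euploid pre-mid-pachytene cells 9 of 40 tested members were higher than in liver and 21 lower, where 46.7% and 39.6% of all genes tested were. In mid-late-pachytene cells 11 were higher and 19 lower (all genes 46.9% and 41.8%), and in spermatids 11 and 21 (47.2% and 43.6%). The median differences of the tested members were -0.43, -0.39 and -0.39, beside 0.27, 0.25 and 0.19 over all genes. In the trisomic mice 13 were higher and 12 lower in pre-mid-pachytene cells than in liver (all genes 48.5% and 38.1%), 12 and 18 in mid-late-pachytene cells (46.9% and 41.2%), and 14 and 17 in spermatids (47.3% and 43.5%). The lower counts include Psmb9, Psmb10 and Psme2, and in the later stages Psme1, which entered through their liver level alone. The same filter was used for all genes.

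Between germ cell stages members moved in both directions. From euploid pre-mid-pachytene to mid-late-pachytene cells 14 of 37 tested members rose and 10 fell (all genes 42.3% and 36.3%), from there to spermatids 4 of 36 rose and 11 fell (29.7% and 34.8%), and over both steps 16 of 37 rose and 15 fell (47.9% and 36.8%). By role, 4 of the 5 alpha genes fell at the first step and none rose, while 4 of the 6 ATPases rose and 2 fell, and 5 of the 11 other cap subunits rose and 1 fell. Along the trisomic germ line 10 rose and 12 fell (all genes 40.9% and 37.7%), then 5 rose and 11 fell (28.6% and 34.2%), and over both steps 13 rose and 16 fell (45.9% and 38.9%). The falls from pre-mid-pachytene cells include Psme1, which entered through its pre-mid-pachytene level alone. Members that passed in both genotypes in the same direction numbered 20, 29 and 27 in the comparisons with liver and 20, 13 and 28 in those within the germ line, and none passed in opposite directions.

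How the arrays were scaled mattered for small differences, because the median of all genes differed between cell types. The deposited values put the euploid median difference of all genes between pre-mid-pachytene cells and liver at 0.27, quantile normalization at 0.25 and centring each array on its median at -0.13, and between mid-late-pachytene and pre-mid-pachytene cells they were 0.14, -0.00 and 0.66. The following held in both genotypes under all 3 scalings. Against liver, 3 members were higher and 10 lower in pre-mid-pachytene cells, 11 and 16 in mid-late-pachytene cells, and 10 and 17 in spermatids. From pre-mid-pachytene to mid-late-pachytene cells 9 rose (Psmb7, Psmc2, Psmc3, Psmc5, Psmd7, Psmd8, Psmd13, Psme4 and Psmf1) and 6 fell (Psma1, Psma2, Psmc4, Psmc6, Psmg3 and Psme1). From mid-late-pachytene cells to spermatids 3 rose (Psma6, Psmc6 and Psmd10) and 9 fell (Psma2, Psma8, Psmc1, Psmd1, Psmd6, Psmd14, Psmd5, Psmg3 and Psmf1). Over both steps 7 rose (Psmc2, Psmc3, Psmc5, Psmd8, Psmd9, Psmd10 and Psme4) and 12 fell (Psma1, Psma2, Psma7, Psma8, Psmc4, Psmc6, Psmd1, Psmd14, Psmd5, Psmg3, Psmg4 and Psme1). For Psme1 a fall was built into its entry at the first step and over both steps. Members that passed in opposite directions under different scalings numbered 6 in the comparison of pre-mid-pachytene cells with liver (Psma1, Psmb4, Psmb6, Psmc2, Psmd1 and Psmd8) 6 at the first germ cell step (Psmb6, Psmd2, Psmd11, Psmd12, Psmg2 and Psme3ip1), 5 over both steps (Psmb6, Psmd2, Psmd12, Psmg2 and Psmf1), 1 in the comparison of spermatids with liver (Psmf1) and 0 in the other two.

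**Figure D4:**
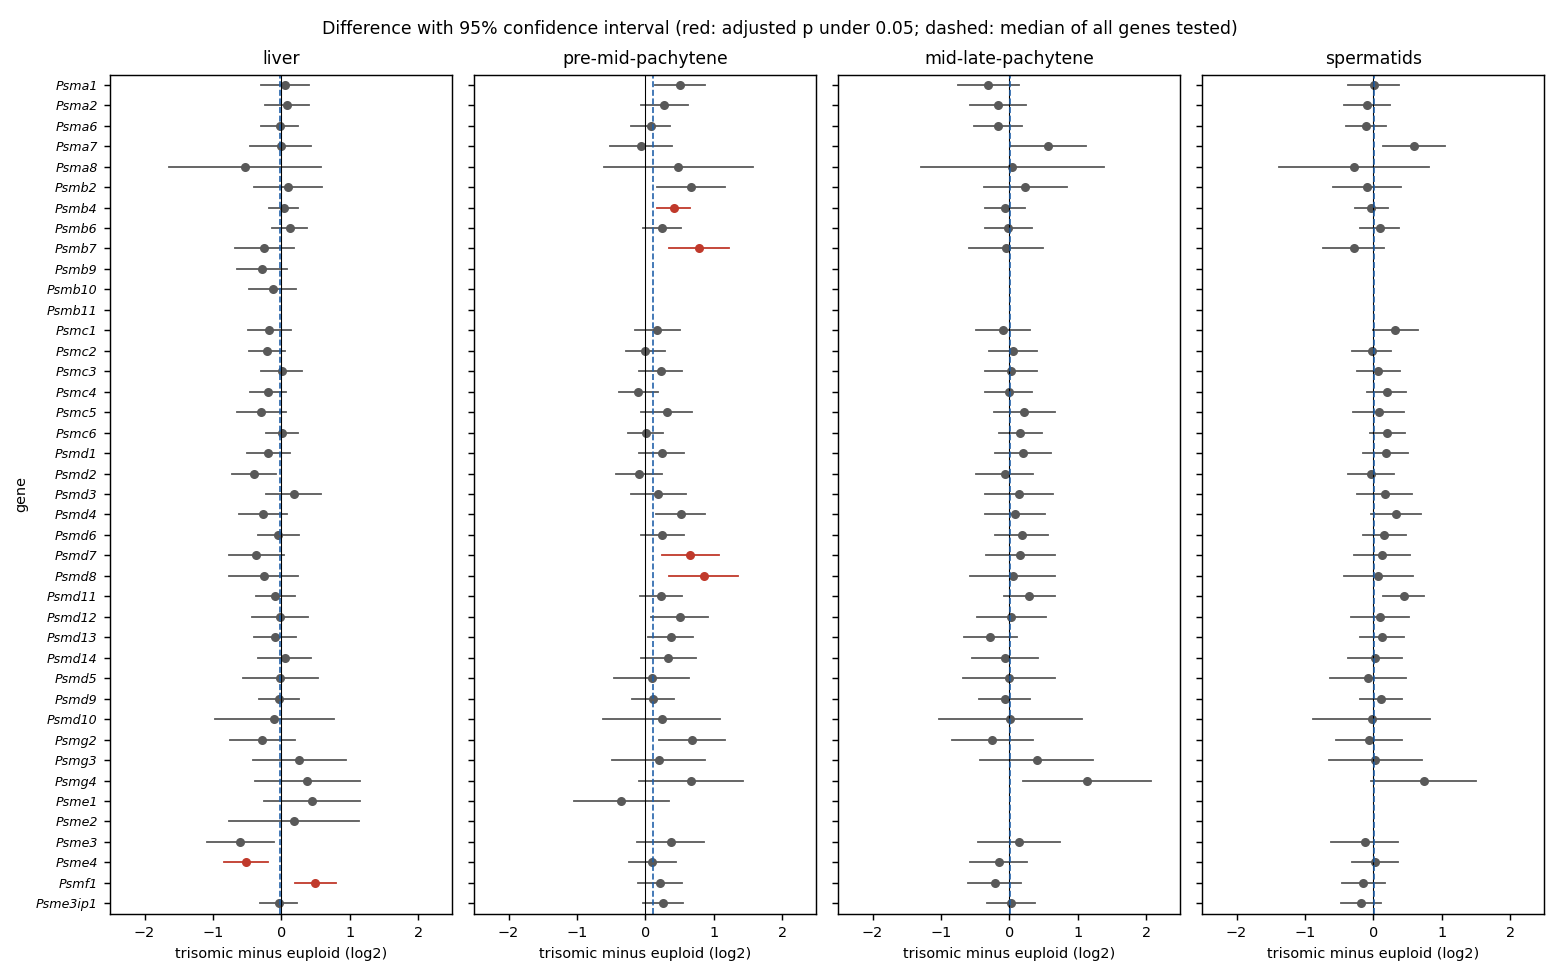
Difference between trisomic and euploid arrays (x axis, log2 intensity) for each tested proteasome gene (y axis) in the 4 cell types, with bars for the 95% confidence interval, red for an adjusted p below 0.05 and a dashed line at the median of all genes tested. Psmf1 and Psme4 are red in liver, and Psmb7, Psmb4, Psmd8 and Psmd7 in pre-mid-pachytene cells.

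Few proteasome genes passed between trisomic and euploid arrays, with shares near or below those of all genes in each cell type. In liver 2 of 40 tested members passed, where 9.55% of all genes did. Psmf1, the inhibitor, read 8.23, 7.99 and 8.33 in euploid and 8.72, 8.54 and 8.78 in trisomic liver, without overlap, a difference of 0.49 (95% CI 0.19 to 0.79, adjusted p = 0.0366) or 1.41-fold. Psme4 read 11.75, 11.78 and 12.12 in euploid and 11.10, 11.31 and 11.69 in trisomic liver, again without overlap, a difference of -0.52 (95% CI -0.84 to -0.19, adjusted p = 0.0414). Each was lost without some single arrays: Psmf1 was lost without the second euploid array, the first trisomic or the third trisomic array, at 0.40, 0.47 and 0.44, and Psme4 without the third euploid, the first trisomic or the second trisomic array, at -0.40, -0.38 and -0.49. Under quantile normalization Psme4 did not pass, at -0.47, and with centred arrays Psmf1 did not, at 0.37. With a block for the replicate number Psmf1 did not pass with limma either (adjusted p = 0.0685). At an unadjusted p under 0.05 there were 4 members of 40, where 22.2% of all genes were, with Psmd2 at -0.40 (95% CI -0.73 to -0.08, adjusted p = 0.114) and Psme3 at -0.60 (95% CI -1.09 to -0.11, adjusted p = 0.121) beside them. Alas2, the 1 red blood cell marker on the array, stood at 12.27 to 12.96 in euploid and 10.54 to 11.54 in trisomic liver, and its part in these differences was not tested.

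In pre-mid-pachytene cells 4 of 37 tested members passed, where 10.3% of all genes did, and all 4 were higher in the trisomic cells, as 5.88% of all genes were. The beta subunit Psmb7 read 11.18, 11.54 and 10.94 in euploid and 12.27, 12.03 and 11.70 in trisomic cells, without overlap, a difference of 0.78 (95% CI 0.34 to 1.22, adjusted p = 0.026) or 1.72-fold. The lid subunit Psmd7 read 8.81, 9.30 and 9.11 in euploid and 9.76, 9.80 and 9.63 in trisomic cells, without overlap, a difference of 0.66 (95% CI 0.25 to 1.07, adjusted p = 0.0398). Psmb4 read 14.04, 14.19 and 14.14 in euploid and 14.52, 14.56 and 14.54 in trisomic cells, without overlap, a difference of 0.41 (95% CI 0.17 to 0.66, adjusted p = 0.0297), though under quantile normalization it was 0.18 with an adjusted p of 0.35 from limma. Psmd8 read 10.81, 11.95 and 10.55 in euploid and 11.80, 11.92 and 12.14 in trisomic cells. These overlapped, with the second euploid array within the trisomic range, and the difference was 0.85 (95% CI 0.35 to 1.36, adjusted p = 0.0323).

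Of the 37 tested members, 33 had a trisomic mean above the euploid one, with a median difference of 0.24 beside 0.11 over all genes, and 28 of 37 lay above that median of all genes. Under quantile normalization the 2 medians were 0.10 and 0.05, and with centred arrays 0.33 and 0.20. The 4 calls depended on single arrays. Psmb7, Psmd7 and Psmb4 each passed without the second euploid or the third trisomic array and were lost without any of the other 4, and Psmd8 passed only without the second euploid array, at 1.27. Members that passed then numbered 7 without the second euploid array, 5 without the third trisomic array, 1 without the third euploid array, which was Psmd4 at 0.69, and 0 without the first euploid, the first trisomic or the second trisomic array. Fitted on the pre-mid-pachytene arrays alone, none of the 4 passed with limma, with adjusted p from 0.118 to 0.219. Round spermatid markers were lower on most of the trisomic arrays, with array medians of 9.50 to 10.34 in euploid and 9.18 to 9.58 in trisomic cells and summed levels of 54.2 to 59.4 and 48.7 to 52.4 over 6 genes. The part of a different mix of stages in these 4 differences was not tested.

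In the later stages no member passed. In mid-late-pachytene cells it was 0 of 36 with limma, where 0.965% of all genes passed, and 2 had an unadjusted p under 0.05, as 7.66% of all genes did: Psma7 at 0.57 and Psmg4 at 1.13. Leaving out either euploid array there let Psmd10 pass, higher in trisomic cells by 1.31 without the first and lower, at -1.28, without the second. In spermatids it was 0 of 36, where 0.821% of all genes passed, and again 2 had an unadjusted p under 0.05, as 8.69% of all genes did: Psma7, which read 6.18, 6.74 and 6.38 in euploid and 6.92, 6.91 and 7.24 in trisomic spermatids without overlap, a difference of 0.59 (95% CI 0.14 to 1.04, adjusted p = 0.305), and Psmd11 at 0.44 (95% CI 0.13 to 0.75, adjusted p = 0.233). Psma8 did not pass in any cell type over all arrays. Its genotype differences were -0.53 (95% CI -1.64 to 0.57, adjusted p = 0.643) in liver, where leaving out the third euploid array gave -1.51 with an adjusted p of 0.00219, 0.48 (95% CI -0.61 to 1.57, adjusted p = 0.608) in pre-mid-pachytene cells, 0.04 (95% CI -1.29 to 1.38, adjusted p = 1.0) in mid-late-pachytene cells and -0.28 (95% CI -1.38 to 0.81, adjusted p = 1.0) in spermatids, where the arrays did not overlap. The germ cell intervals reach beyond 1 in at least 1 direction. Their width and p-values rest on a spread fitted over all groups, the unsteady Psma8 liver arrays included, and not on the germ cell arrays alone. Psmb9 is the only member on chromosome 17, at chr17:34182030-34187330 in GRCm38.p6; the labels do not give the end of the extra segment. In liver, the only cell type where it was measured above background, its trisomic arrays read 8.45, 8.75 and 8.93 against 9.03, 9.45 and 8.49, a difference of -0.28 (95% CI -0.65 to 0.08, adjusted p = 0.387), and -0.53 with an adjusted p of 0.026 without the third euploid array. Psmd2, the member on chromosome 16, read 12.51, 12.82 and 12.61 in euploid and 11.97, 12.20 and 12.57 in trisomic liver.

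Interaction tests asked whether the genotype effect differed between cell types, and 2 of 40 tested members passed in 1 of them, a share below that of all genes. Psmb7 and Psmd7 had a more positive trisomic difference in pre-mid-pachytene cells than in liver, by 1.03 (SE 0.29, adjusted p = 0.0446) and 1.03 (SE 0.27, adjusted p = 0.0328) in the interaction test, where 6.29% of all genes passed, 3.26% in this direction, and 10 of 40 tested members had an unadjusted p under 0.05, where 23.4% of all genes did. The corresponding liver differences were -0.25 and -0.37. Over 20 alternatives Psmb7 passed in 7 and Psmd7 in 10, and neither passed when only the arrays compared were fitted. In the other 5 interaction tests with limma no member passed over all arrays. Without the second euploid pre-mid-pachytene array Psmd8 passed against mid-late-pachytene cells, at -1.23, and against spermatids, at -1.20, as did Psmb7 against spermatids without the third trisomic pre-mid-pachytene array, at -1.22. All genes passing in them were 1.81% for mid-late-pachytene cells against liver, 1.92% for spermatids against liver, 0.14% for mid-late-pachytene against pre-mid-pachytene cells, 0.0716% for spermatids against mid-late-pachytene cells and 0.194% for spermatids against pre-mid-pachytene cells. At an unadjusted p under 0.05 the members numbered 1, 6, 6, 0 and 7 in that order, where 11.5%, 13.1%, 12.6%, 3.09% and 15.2% of all genes did so.

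Genes that work with the proteasome were set beside its subunits, with 21 on the array from a list of cofactors, shuttle proteins, ubiquitin-activating enzymes and regulators. Against euploid liver 6 were higher and 9 lower in pre-mid-pachytene cells (all genes 46.7% and 39.6%). In mid-late-pachytene cells 6 were higher and 9 lower (46.9% and 41.8%), and in spermatids 6 and 11 (47.2% and 43.6%). Akirin2, which brings proteasomes into the nucleus, was higher in all 3, by 2.41 (SE 0.15, adjusted p = 2.59e-11), 3.55 and 3.68. The transcription factors Nfe2l1, which drives the subunit genes when the proteasome is inhibited, and its relative Nfe2l2 were lower in all 3, at -1.83, -1.51 and -3.21 for Nfe2l1 and -5.0, -6.28 and -2.54 for Nfe2l2. Pomp, the chaperone that matures the beta ring, fell from mid-late-pachytene cells to spermatids by a step of -1.80 (SE 0.25, adjusted p = 3.77e-06). These held in both genotypes under all 3 scalings.

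Within the germ line 8 of 21 partners rose and 7 fell from euploid pre-mid-pachytene to mid-late-pachytene cells (all genes 42.3% and 36.3%). Then 4 rose and 8 fell into spermatids (29.7% and 34.8%). The shuttle protein Rad23b rose at the first step by 4.23 (SE 0.29, adjusted p = 1.77e-10), from a level that lay -3.79 from liver. The cap deubiquitinase Uchl5 rose by 1.94 (SE 0.19, adjusted p = 2.06e-08) at the same step. Uba6, an activating enzyme for ubiquitin and a ubiquitin-like protein, fell by steps of -4.66 (SE 0.44, adjusted p = 1.48e-08) and -3.30 (SE 0.44, adjusted p = 2.69e-06). In the trisomic cells its second step was not tested, as its mean there was below 4. Ubqlnl, a ubiquilin-like gene, was higher than euploid liver by 8.09 in pre-mid-pachytene cells, 3.33 in mid-late-pachytene cells and 9.09 in spermatids. Trisomic mid-late-pachytene cells were not tested against liver for Ubqlnl, as its mean over them was below 4. Its trisomic liver level was thus low, and it entered the other trisomic comparisons with liver through its germ cell level, so a higher value was built in. The same may hold of the euploid differences, whose sizes also depend on the liver level. By genotype, 1 of 20 tested partners passed in liver, where 9.55% of all genes did: Ubqln4 at -0.61 (SE 0.17, adjusted p = 0.0328). In pre-mid-pachytene cells 1 of 21 passed, where 10.3% of all genes did: Uchl5 at 0.78 (SE 0.17, adjusted p = 0.00943).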

How the data were processed

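RNA of 22 mouse samples in 8 groups of cell type and genotype was measured on Affymetrix arrays. The authors deposited log2 intensities per probe set that they computed with GCRMA, per the submitters' processing notes; its version, and which arrays were normalized together, are not given in the sources used here. GCRMA subtracts a background that depends on probe sequence and sets the arrays to a common distribution, which can flatten low values and hide a shift of most genes. Each of the 22 columns was matched to a sample by its name, and 0 columns were left unmatched. Values ran from 0.90 to 16.75, and array medians from 4.10 to 4.69. Probe sets were named from the platform annotation, 15780 with 1 symbol and 759 with none, which were left out of the tests. The number of arrays limits the precision.

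Group means of all 22 arrays were fitted with limma 3.58.1 in R 4.3.3, so that the spread of a gene was estimated once for all comparisons and moderated by limma. Genes with a mean of at least 4 over the arrays compared were tested, two-sided, with Benjamini-Hochberg adjustment over all of them. The fit was tested on simulated data with known changes. Replicate numbers were checked for pairing: same-numbered euploid and trisomic arrays had correlations of -0.14 to 0.36, over 0.1 in 4 of 11 pairs, so they were not taken as paired. With 2 arrays per group the mid-late-pachytene pairs give the same value by construction. In liver all correlations were positive, at 0.10, 0.17 and 0.10, and each array correlated best with its own number. A replicate block was therefore of most weight there.

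The proteasome genes, the lists of partner, interferon and marker genes and the motifs were chosen with earlier results of these data known. Every member was accounted for by role, with values per array for the specialised and catalytic subunits and, per comparison, for up to 8 members in each direction with the largest changes whose arrays did not overlap; of the partners, up to 4 per direction were named. Alternatives were quantile normalization, centring arrays on their medians, no filter or a minimum mean of 6, only the arrays compared, limma with a trend and robust spread, a replicate block, leaving out each array, and an adjusted p under 0.01. The count of members that held under all 3 scalings in both genotypes was added after the values had been seen. Gene positions and promoter windows came from RefSeq tables of assembly GRCm38.p6.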

Additional observations from a re-analysis of the deposited data

Results flagged for a closer look

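For Psmb7 and Psmd7 the difference between trisomic and euploid cells was not the same in pre-mid-pachytene cells and in liver, by the interaction test with limma. The difference of differences was 1.03 for Psmb7 (adjusted p = 0.0446) and 1.03 for Psmd7 (adjusted p = 0.0328), with 3 arrays per group. These were 2 of 40 tested members, where 6.29% of all genes passed, 3.26% in this direction. At an unadjusted p under 0.05 there were 10 of 40 members, where 23.4% of all genes were. Over 20 alternatives, single arrays left out included, Psmb7 passed in 7 and Psmd7 in 10, with values from 0.89 to 1.24 and from 0.85 to 1.25. Members that passed in this interaction numbered 0 without the first euploid or the first or second trisomic array of either cell type, 1 without the third euploid array of either, 5 without the second euploid and 4 without the third trisomic pre-mid-pachytene array, and 4 without the third trisomic liver array. The cause was not tested.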

How the results depend on the processing

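The alternatives were run on 196 of the differences between cell types that passed for single members. They covered the specialised and catalytic subunits and, per comparison, up to 8 members per direction with the largest changes without overlap. Other differences that passed were left out. Of 2632 values under the alternatives, 2580 kept their direction and passed, 51 no longer passed and 1 reversed. The reversed value was Psmb6 between spermatids and euploid pre-mid-pachytene cells, at -0.55 under quantile normalization. Over all members, 30 passed in euploid pre-mid-pachytene cells against liver, and 3 higher and 14 lower held under all 3 scalings. The 8 genotype and interaction differences that passed were less steady: 58 of 124 values passed, 66 did not and 0 reversed. Members that passed in liver by genotype numbered 2, but 1 under quantile normalization, 1 with the replicate block, and 0 with only the arrays compared or at 0.01. In pre-mid-pachytene cells they numbered 4, but 8 with centred arrays, 2 with no filter, and 0 with only the arrays compared or at 0.01. The interaction between pre-mid-pachytene cells and liver gave 2, but 8 with centred arrays, 5 with a trend and robust spread, and 0 with only the arrays compared or at 0.01. With no filter 1 member passed in the interaction of mid-late-pachytene with pre-mid-pachytene cells and 1 in that of spermatids with pre-mid-pachytene cells, where 0 had passed. Leaving out single arrays gave 0 to 3 members in liver, 0 to 7 in pre-mid-pachytene cells, 0 to 1 in mid-late-pachytene cells, 0 to 5 in the first interaction and 0 to 1 in each of the other 2. With the replicate block Psmf1 in liver (adjusted p = 0.0685), Psmd7 (0.0517) and Psmb4 (0.0662) in pre-mid-pachytene cells and Psmb7 in the interaction with liver (0.0689) did not pass, with limma, while no count other than the liver one moved by over 1.5 times; every liver array correlated best with its own number, 6 of 6, against 2 of 6 in pre-mid-pachytene cells and 2 of 6 in spermatids. The median level over the members moved with scaling: under quantile normalization from 11.53 to 11.62 in euploid and 11.29 to 11.40 in trisomic liver, from 11.01 to 11.40 and 11.43 to 11.71 in pre-mid-pachytene cells, from 11.30 to 11.15 in trisomic mid-late-pachytene cells, and from 10.95 to 10.65 and 10.93 to 10.63 in spermatids. With centred arrays it was 11.67 in euploid liver, 10.75 and 11.26 in pre-mid-pachytene cells, and 11.44 and 11.52 in mid-late-pachytene cells. Centring also moved the share of all passing genes that were higher in the trisomic arrays from 60.4% to 39.4% in liver and from 56.9% to 71.0% in pre-mid-pachytene cells, and the share higher in euploid mid-late-pachytene than pre-mid-pachytene cells from 53.8% to 63.9%. The causes were not tested. Groups of 2 or 3 arrays limit all of these values, and levels in the background range have no order.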
